A study of Homo sapiens with 4 samples.

Results

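Gene expression in A549 cells, a line established from a human lung adenocarcinoma, was compared between the 2 arrays of cells given an expression plasmid and the 2 arrays of cells given an siRNA, which together are all 4 arrays of the series. The plasmid arrays were vector, the empty overexpression vector, and WDR4, the WDR4 overexpression construct. The siRNA arrays were siCtrl, a control siRNA, and siPML, an siRNA against PML. All 4 cultures were transfected and are labelled 48 h, and each construct had 1 array. The sample labels name a vector and WDR4 overexpression without the word plasmid, which was taken from the definition of this comparison. The sources used here give neither the promoter and backbone of the overexpression construct nor the siRNA sequences or the transfection reagent. Each of 18255 genes was represented by its brightest probe with a single gene symbol, and its difference is the mean of log2(intensity + 1) on the plasmid arrays minus the mean on the siRNA arrays. A gene is called higher when each of the 4 differences between a plasmid and an siRNA array was at least 2-fold and both plasmid arrays reached 223 units, the median level of all genes, and it is called lower by the same rule turned round. The sides of a gene do not overlap when both plasmid arrays lie above, or both below, both siRNA arrays. The arrays of a side carry different constructs and are not replicates, so the differences and calls carry no p-value. Nucleic acid type, construct, transfection, culture and array pair cannot be told apart.

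Cells treat nucleic acid in the cytosol as a sign of infection. Helicases of the RIG-I family bind double-stranded RNA and signal through MAVS, while CGAS binds DNA and signals through STING1. Both routes switch on interferon regulatory factors and NF-kB, and the interferon that is then secreted acts through JAK kinases and a complex that holds STAT2 and IRF9. That complex binds the interferon-stimulated response element (ISRE), a repeat of GAAA spaced by a pair of bases, in the promoters of antiviral genes.

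The promoters below are shown because genes that were among the most different between the sides carry that element. Each stretch is from RefSeq on GRCh38.p14, is written on the strand of its gene, and lies in the window of 250 bases before to 50 bases after the annotated start. Capitals mark the ISRE core GAAA-NN-GAAA (N is any base, and the hyphens only divide the parts), read on either strand, so that TTTC-NN-TTTC is the same motif turned round. The BST2 stretch holds 2 overlapping cores.
BST2 (chr19:17405726-17405785, minus strand): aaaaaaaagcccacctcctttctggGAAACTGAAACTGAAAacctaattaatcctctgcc
IFIT3 (chr10:89327816-89327875, plus strand): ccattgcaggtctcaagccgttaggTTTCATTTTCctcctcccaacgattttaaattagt
IFI27 (chr14:94110603-94110662, plus strand): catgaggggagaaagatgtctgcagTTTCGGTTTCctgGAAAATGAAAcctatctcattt
RTP4 (chr3:187368318-187368377, plus strand): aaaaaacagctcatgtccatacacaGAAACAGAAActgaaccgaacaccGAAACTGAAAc
IFITM1 (chr11:313975-314034, plus strand): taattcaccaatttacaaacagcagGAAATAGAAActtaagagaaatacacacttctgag
IFI44L (chr1:78620259-78620318, plus strand): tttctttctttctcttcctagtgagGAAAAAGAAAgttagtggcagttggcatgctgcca

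The arrays held 31741 probes each. Median probe intensities were 121 and 134 on vector and WDR4, and 106 and 118 on siCtrl and siPML, and upper quartiles were 715 and 709 on the plasmid arrays and 620 on each siRNA array. At least 1 array had reached the scanner's limit, taken as 65000 units, for 65 genes. Of 14 A549 and lung epithelial markers, 8 reached 223 units on an array, including ALDH1A1, which read above 65000 units on all 4 arrays, and the keratins KRT7 and KRT19. The other 6, among them KRT8, the alveolar surfactant genes SFTPB and SFTPC and their regulator NKX2-1, were below that level on all 4 arrays. The median difference of these 14 markers was 0.02, and -0.01 and -0.21 after quantile scaling and after centring each array. Markers of other cells varied in level. All 6 endothelial markers and 5 of 7 fibroblast markers were dim on every array, and the fibroblast receptor PDGFRB read between 0 and 2.54 units. The summed intensity of the 5 T cell markers was 906 and 972 on the plasmid arrays and 947 and 1130 on the siRNA arrays, and none was called. That of the 6 embryonic kidney line markers was 4856 and 5941 on the plasmid arrays and 3082 and 2840 on the siRNA arrays, with the intermediate filament gene INA the brightest and none called. The 6 macrophage markers summed to 11216 and 9717 on the plasmid arrays and 10523 and 3976 on the siRNA arrays. The brightest, the lipopolysaccharide co-receptor CD14, read 7453 and 5205 on vector and WDR4 and 9183 and 2852 on siCtrl and siPML, with overlapping sides and siPML the lowest. Of the others CD68, a lysosomal glycoprotein, was called higher, at 3248 and 3828 on vector and WDR4 and 623 and 403 on siCtrl and siPML, while the macrophage receptors CSF1R and CD163 read at most 46.04 units. In bulk RNA, fewer cells of a type and less RNA per cell cannot be told apart, and the part of these cell types in the results was not tested.

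More genes were brighter than dimmer on the plasmid side. In all 422 genes were called higher, 2.31% of those on the array, and 83 were called lower, 0.455%, or 2.77% in both directions. Both plasmid arrays lay above both siRNA arrays for 29.6% of genes and below them for 18.7%. Of the 505 calls, 83.6% were higher. Centring each array on the median of its genes moved the median difference of all genes by -0.24 and left 58.5% of calls higher (274 higher, 194 lower), and quantile scaling moved it by -0.12 and left 70.3% higher (310 higher, 131 lower). The surplus of higher genes therefore depended in part on the scale of the arrays. Leaving out an array, so that only 2 differences had to pass, gave 545 higher genes without vector, 664 without WDR4, 927 without siCtrl and 664 without siPML, and 133, 144, 242 and 215 lower genes in the same order.

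Arrays differed more between the sides than within them. Over the 8169 genes that reached 223 units on all 4 arrays, the standard deviation across genes was 0.60 for the plasmid minus siRNA difference, 0.31 for WDR4 minus vector and 0.51 for siPML minus siCtrl. Of the summed squares about each gene's mean, 67.7% lay between the sides, 8.78% within the plasmid side and 23.5% within the siRNA side. The pairs vector minus siCtrl and WDR4 minus siPML, which share no array, had a Pearson correlation of 0.633 and a Spearman correlation of 0.571 across these genes. Genes are not independent replicates, and a gene's own probe is shared by both pairs.

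**Figure D1:**
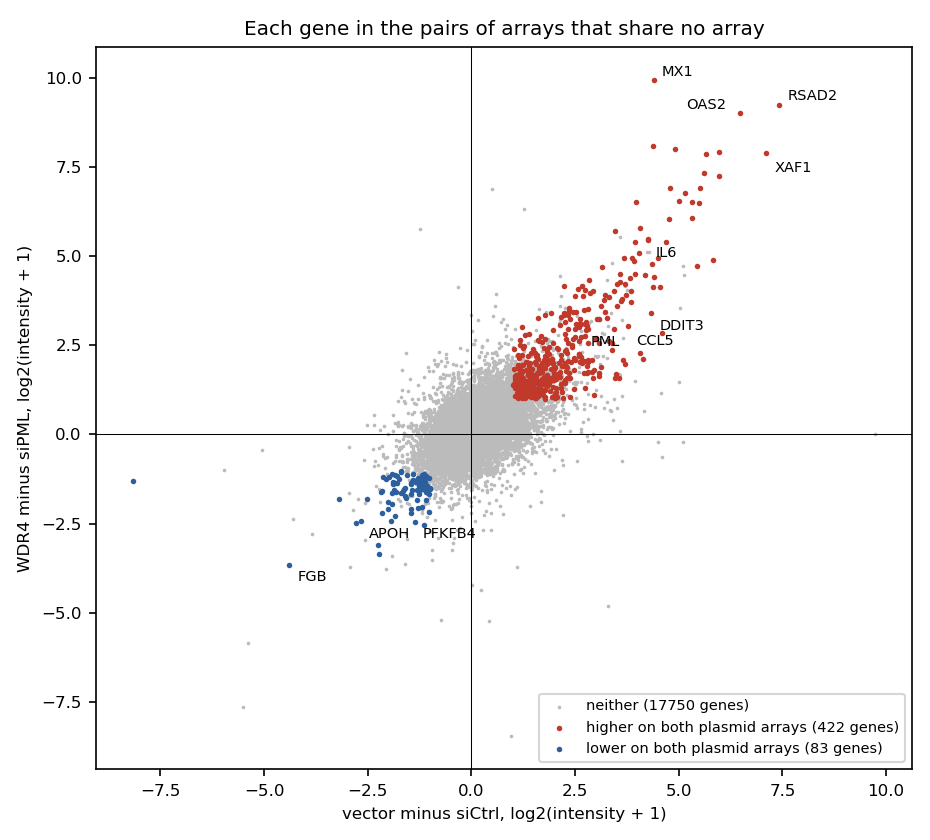
Each point is 1 of 18255 genes, with vector minus siCtrl on the horizontal axis and WDR4 minus siPML on the vertical axis, both as differences of log2(intensity + 1). Red points are the 422 genes called higher on both plasmid arrays, blue points the 83 called lower and grey points the rest; the red cloud reaches far along the diagonal, to MX1, RSAD2, OAS2 and XAF1, while the blue cloud is short and ends at FGB, apart from DPH5 far to the left, whose vector intensity was 0.487 against 207 on WDR4, 421 on siCtrl and 516 on siPML.

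Large differences were counted more often among the higher genes. The median difference was 1.88 for the higher genes and -1.51 for the lower genes. Centring moves every difference by -0.24, which is enough to reverse which of these medians is larger in size. All 4 differences were at least 4-fold for 126 higher and 4 lower genes, at least 8-fold for 55 and 1, and at least 32-fold for 12 and 0. Of the 422 higher genes, 171 were below 223 units on both siRNA arrays and 206 were above it on both. Of the 83 lower genes, 60 were above that level on both plasmid arrays. Further probes of the same genes were compared. A second probe existed for 135 higher genes, and for 112 of them (83.0%) it showed both plasmid arrays above both siRNA arrays, with all 4 differences at least 2-fold for 73 (54.1%). For the 27 lower genes with a second probe it lay below on both plasmid arrays for 20 (74.1%), and all 4 differences reached 2-fold for 8 (29.6%). Counting only second probes that reached 223 units on an array favours the side where a gene is high. All 4 differences then reached 2-fold for 54 of 76 higher genes (71.1%) and 7 of 17 lower genes (41.2%). Across all 2024 genes with such a probe, they did so upward for 91 (4.50%) and downward for 13 (0.642%). Sides did not overlap for 70 higher genes (92.1%) and 15 lower genes (88.2%). Over the 2024 genes, both plasmid arrays lay above for 721 (35.6%) and below for 454 (22.4%). These shares over all genes cover only probes at that level.

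PML and WDR4, the genes that the constructs target, were examined on both sides. PML, the scaffold protein of nuclear bodies and itself known as an interferon-induced gene, was higher on the plasmid arrays. Its brightest probe read 3840 and 5015 on vector and WDR4, against 853 and 506 on siCtrl and siPML, a difference of 2.74 with the 4 array differences between 2.17 and 3.31. The sides did not overlap, and siCtrl, which carried no siRNA against PML, lay closer to siPML than to either plasmid array. The other 3 PML probes differed by 1.73, 1.19 and 1.95. WDR4, a partner of the tRNA methyltransferase METTL1, read 1140 and 4708 on vector and WDR4 and 2350 and 1271 on siCtrl and siPML. Its sides overlapped, since vector was the lowest and WDR4 the highest of the 4 arrays. A second WDR4 probe read 1191 and 890 on the plasmid arrays and 2226 and 1501 on the siRNA arrays, a difference of -0.83.

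Antiviral effector genes had the highest median of the 44 lists. Members and lists were chosen with earlier results of these data known, so the shares describe the lists and are not independent support. All 48 listed effectors lay above both siRNA arrays on both plasmid arrays, against 29.6% of all genes, and 43 were called higher, against 2.31% of all genes. Their median difference was 3.90, which is 14.9-fold, against 0.05 for all genes. RSAD2 (viperin), an enzyme that makes a chain-terminating nucleotide, read 258 and 642 on vector and WDR4 and 0.515 and 0.0583 on siCtrl and siPML. The siRNA values were close to 0, so the difference of 8.33 depended on the 1 added before log2, and it was 4.71 with 16 added. OAS2, which makes the 2-5A messenger that activates RNase L, read 5772 and 8987 on the plasmid arrays and 63.5 and 16.4 on the siRNA arrays, a difference of 7.75. The other OAS2 probes had smaller differences, 3.30 and 4.13. XAF1, a pro-apoptotic antagonist of XIAP, read 8098 and 8660 on vector and WDR4 and 58.0 and 35.4 on siCtrl and siPML, a difference of 7.50. A second, dimmer XAF1 probe differed by 4.47. For OAS2 and XAF1 both siRNA arrays were below 223 units and both plasmid arrays above it. The same held for 19 of the 48 genes, and for 400 of all 18255 genes. Among the largest differences outside the lists, IFFO1 read 243 and 234 on vector and WDR4 and 4.03 and 0.473 on siCtrl and siPML, and ARL14EPL read 265 and 273 on the plasmid arrays and 6.49 and 1.53 on the siRNA arrays. IFFO1 lost its call with quantile normalization and with centring, although its difference of 6.46 was then 6.47 and 6.22.

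The Mx GTPases, which block viral nucleocapsids, showed how far the siRNA arrays differed from each other. MX1 read 4838 and 4986 on vector and WDR4, and 229 and 4.07 on siCtrl and siPML. MX2 read 1188 and 1678 on the plasmid arrays and 18.04 and 5.96 on the siRNA arrays. For both genes the plasmid arrays were close together and above both siRNA arrays, and siPML was the lowest. Across the 48 effectors, the median difference was 3.48 for vector minus siCtrl and 4.30 for WDR4 minus siPML. Within the sides, the median was 0.31 for WDR4 minus vector and -0.62 for siPML minus siCtrl.

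The genes whose promoters are printed above were among these effectors. BST2 (tetherin), which holds budding virions at the cell surface, read 11529 and 12357 on vector and WDR4 and 184 and 80.1 on siCtrl and siPML, a difference of 6.61. IFIT3, a partner of RNA-binding IFIT proteins, read 12898 and 16555 on the plasmid arrays and 286 and 184 on the siRNA arrays, a difference of 5.99. The differences were 6.47 for IFI27, 6.24 for IFI44L, 5.85 for the membrane protein IFITM1, which hinders viral entry, and 5.41 for RTP4. A second IFI44L probe read 181 and 243 on vector and WDR4 and 139 and 124 on siCtrl and siPML, a difference of 0.67. The sides did not overlap for any of the 6. OASL and CMPK2 differed by 6.75 and 5.69, and IFIT2 by 5.92. The smallest difference of the list, 1.41, was that of the mitochondrial ribonuclease PNPT1. Not called for being under 2-fold or too dim on an array were PNPT1, IFITM2, HERC6, GBP2 and SHFL.

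**Figure D2:**
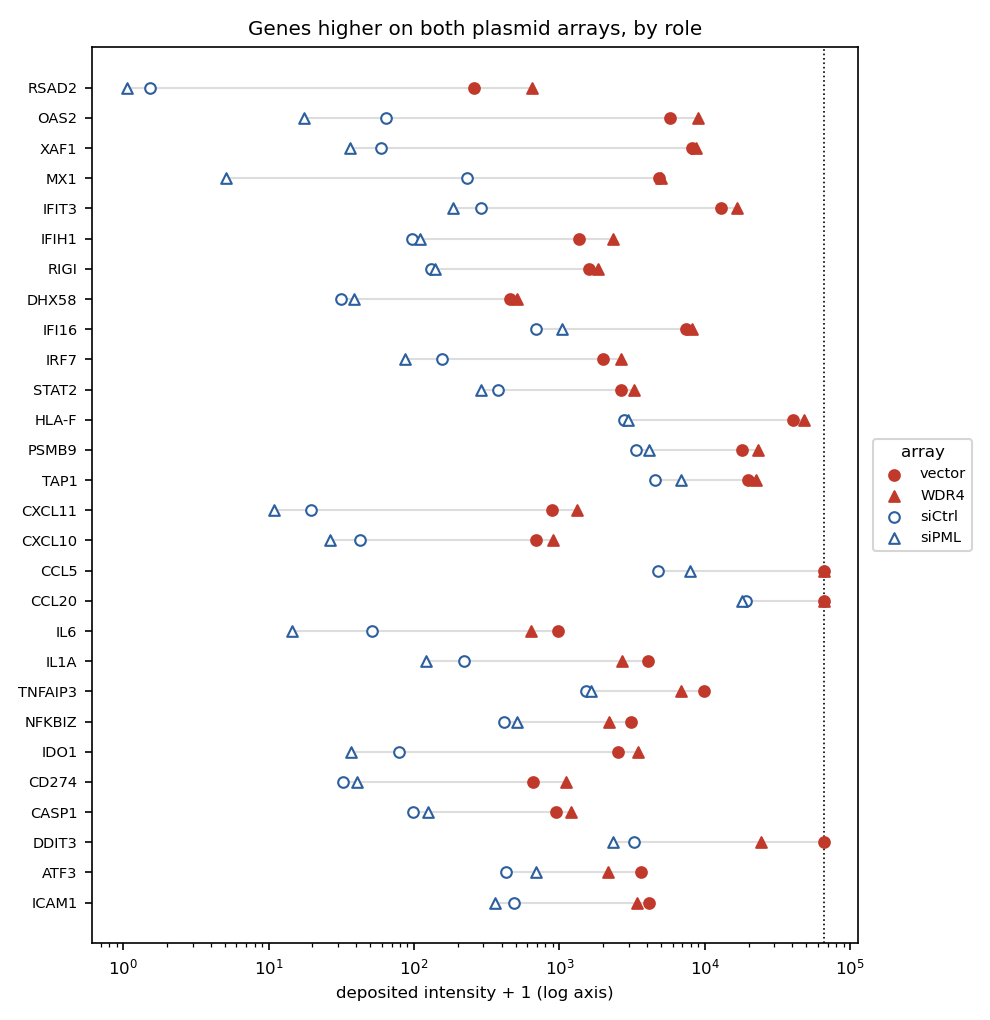
Deposited intensity plus 1 on a log axis for 28 genes called higher, ordered by role from antiviral effectors at the top to adhesion at the bottom, with filled red symbols for the plasmid arrays (circle vector, triangle WDR4) and open blue symbols for the siRNA arrays (circle siCtrl, triangle siPML). The red symbols of every gene shown lie right of its blue ones, and CCL5 and CCL20 reach the dotted line of the scanner's limit on both plasmid arrays.

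Among genes called higher, the ISRE core was more frequent where the difference was larger. A promoter was available for 14579 genes, of which 3.02% held the core on either strand. Among the genes called higher it was found in 58 of 332 promoters (17.5%), among those with all 4 differences at least 4-fold in 33 of 91 (36.3%), and among the others in 25 of 241 (10.4%). Outside the effector list, 30 of 296 higher genes (10.1%) held it. Of the lower genes 1 of 72 (1.39%) did, and of genes called neither way 2.69%. Of the effectors 29 of 39 with a promoter held it, and of the MHC class I list 9 of 16. The share did not follow the difference in every list. It was 5 of 11 for TNF superfamily ligands, with a median difference of 0.58. For the STAT, IRF and JAK list, with a median of 0.87, it was 1 of 15. Seen from the sequence, 13.2% of the 441 genes with the core were called higher, against 1.94% of genes without it. The median difference was 0.14 with the core and 0.05 without it. XAF1 had no core in its window, so the motif was not present in every strongly higher gene. A match describes the letters in this window and is not a measured binding site.

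**Figure D3:**
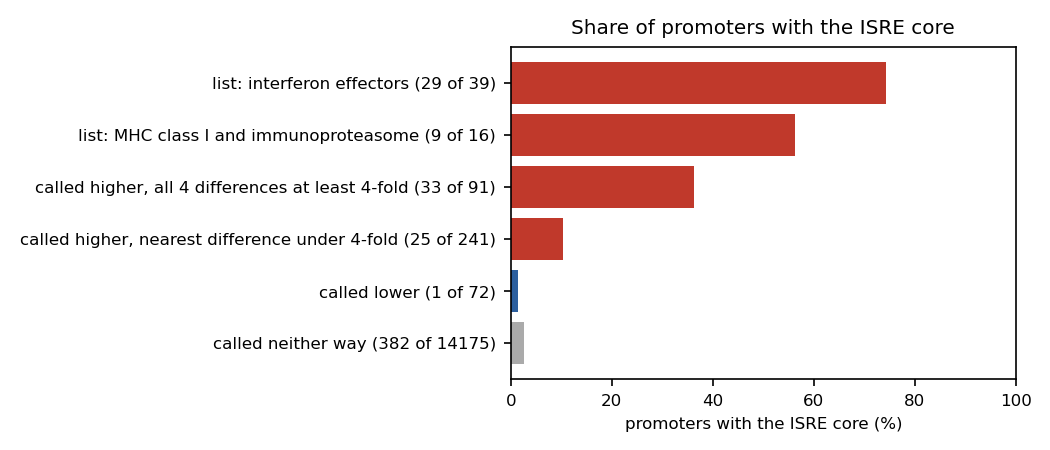
Bars give the percentage of promoters (250 bases before to 50 after the start) that hold the ISRE core on either strand, for the sets named on the left with their counts. The bar is longest for the interferon effectors (29 of 39), shorter for genes called higher and shortest for genes called lower (1 of 72) or neither way.

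Sensors of RNA and of DNA were described next. Of 14 RNA sensing genes, 7 were called higher and none lower, with a median difference of 1.44, and of 12 DNA sensing genes 2 were called higher and none lower, with a median of 0.25, against 2.31% of all genes called higher. IFIH1 (MDA5), which binds long double-stranded RNA, read 1367 and 2316 on vector and WDR4 and 95.8 and 109 on siCtrl and siPML, a difference of 4.11. RIGI, which binds RNA ends with a triphosphate, read 1587 and 1851 on the plasmid arrays and 130 and 139 on the siRNA arrays, a difference of 3.67. For both, the arrays of a side lay close together and the sides were more than 3 log2 units apart. DHX58 (LGP2), the regulatory member of the family, differed by 3.78, the endosomal RNA receptor TLR3 by 2.34 and the RNA-editing enzyme ADAR by 1.64. The adaptor MAVS went the other way, at 1221 and 1331 on the plasmid arrays and 1673 and 1545 on the siRNA arrays, and the kinase TBK1 differed by 0.21.

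Among DNA sensing genes, IFI16, a nuclear DNA-binding protein that interferon induces, read 7440 and 8096 on vector and WDR4 and 685 and 1036 on siCtrl and siPML, a difference of 3.20. TREX1, the exonuclease that clears cytosolic DNA, differed by 1.88. CGAS read 423 and 378 on the plasmid arrays and 223 and 329 on the siRNA arrays, above without being called. STING1 was dim on all 4 arrays, between 129 and 186 units, and its sides overlapped. The list's median was 0.05 with quantile scaling, 0.01 with centring and 0.38 without siPML.

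Transcription factors that carry the interferon signal were described with their kinases. Of 17 STAT, IRF and JAK genes, 13 lay above both siRNA arrays and 5 were called higher, against 29.6% and 2.31% of all genes. None was called lower, and the median difference was 0.87. STAT2 read 2641 and 3276 on vector and WDR4 and 377 and 288 on siCtrl and siPML, a difference of 3.15, and its partner IRF9 differed by 1.88. IRF7, which drives interferon transcription after a first round of signalling, read 1996 and 2669 on the plasmid arrays and 156 and 85.5 on the siRNA arrays, a difference of 4.31. IRF1 differed by 2.19 and BATF2 by 5.05. A second BATF2 probe read 89.1 and 102 on vector and WDR4 and 82.5 and 110 on siCtrl and siPML, with overlapping sides. On their brightest probes the sides of these 5 genes did not overlap, whereas those of JAK1, a kinase of the interferon receptors, did, at a difference of 0.15.

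Interferons themselves were dim. Of 14 interferon and receptor genes none was called in either direction, and 8 were below 223 units on all 4 arrays. Both plasmid arrays lay above both siRNA arrays for 8 of the 14, against 29.6% of all genes. IFNB1, which encodes interferon beta, read 53.04 and 103 on vector and WDR4 and 23.9 and 30.6 on siCtrl and siPML. IFNL2, a type III interferon whose copies can share probe signal, read 186 and 394 on the plasmid arrays and 9.01 and 10.4 on the siRNA arrays, a difference of 4.67 that was not called because vector lay below 223 units. IFNE went the other way at dim values, 48.1 and 44.5 on the plasmid arrays and 111 and 209 on the siRNA arrays. The receptor chains IFNGR2 and IFNGR1 differed by 1.48 and 1.15, above both siRNA arrays, and IFNAR1 by 0.37.

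Genes of antigen presentation formed a further group. Of 17 MHC class I and immunoproteasome genes, 13 lay above both siRNA arrays and 7 were called higher, against 29.6% and 2.31% of all genes. The median difference was 1.09. HLA-F read 40449 and 48418 on vector and WDR4 and 2790 and 2954 on siCtrl and siPML, a difference of 3.95, and its other probes differed by 4.30 and 4.13. Because HLA genes are alike in sequence, signal from related genes is possible. PSMB9, a catalytic subunit of the immunoproteasome, read 18111 and 23142 on the plasmid arrays and 3349 and 4105 on the siRNA arrays, a difference of 2.46. TAP1, which carries peptides into the endoplasmic reticulum, differed by 1.91, the trimming peptidase ERAP2 by 1.83 and PSMB8 by 1.59. The light chain B2M was bright on all arrays and differed by 0.73. By contrast, of 26 constitutive proteasome genes 18 lay below both siRNA arrays, against 18.7% of all genes, none was called and the median was -0.29, or -0.53 with centring.

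Some chemokines and cytokines were called higher on the plasmid side. Of 17 chemokines, 15 lay above both siRNA arrays and 6 were called higher, against 29.6% and 2.31% of all genes. The median difference was 1.13. CXCL11 and CXCL10, ligands of the T cell receptor CXCR3, differed by 6.21 and 4.56. CXCL10 read 692 and 900 on vector and WDR4 and 41.4 and 25.5 on siCtrl and siPML. CCL5, which attracts T cells, was at the scanner's limit on both plasmid arrays, at 65555 and 65515, against 4795 and 7941 on the siRNA arrays, which makes 3.41 the least its difference can be. CCL20 was also at the limit on both plasmid arrays, against 19210 and 17933 on the siRNA arrays. The neutrophil attractants CXCL2 and CXCL3 differed by 2.06 and 1.59, and both calls were lost when arrays were centred. CXCL9 was dim, at most 20.96 units, with overlapping sides.

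Of 18 genes of the IL-1, IL-6 and colony-stimulating families, 15 lay above both siRNA arrays, against 29.6% of all genes. Calls were higher for 6 of the 18, against 2.31% of all genes, and lower for none, with a median of 1.47. IL6, the main inducer of hepatic acute phase proteins, read 976 and 631 on vector and WDR4 and 50.4 and 13.5 on siCtrl and siPML, a difference of 4.85. IL1A read 4056 and 2697 on the plasmid arrays and 220 and 120 on the siRNA arrays, a difference of 4.34. For both cytokines vector was the highest array and siPML the lowest. IL1B and IL23A differed by 2.93 and 2.88, IL11 by 2.65 and IL32 by 1.86. Of 12 TNF superfamily ligands, TNFSF10 (TRAIL), a death ligand, was called higher with a difference of 3.72, a call lost with the mean over its probes, and the median was 0.58, or 0.29 without siCtrl and 0.92 without siPML.

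NF-kB genes included subunits, inhibitors and co-activators. Of 16 subunits and feedback genes, 13 lay above both siRNA arrays and 2 were called higher, against 29.6% and 2.31% of all genes. None was called lower, and the median was 0.97. TNFAIP3 (A20), a ubiquitin-editing inhibitor of the pathway, read 9929 and 6843 on vector and WDR4 and 1528 and 1638 on siCtrl and siPML, a difference of 2.38. NFKBIZ, a nuclear co-activator of IL6, differed by 2.49. BIRC3 differed by 1.52, RELB by 1.33 and NFKB2 by 1.05, all above both siRNA arrays and short of the call. The motif GGG-NN-TTTCC, searched on both strands as a form of the NF-kB site, was in 6 of 13 chemokine promoters and 6 of 14 of this list, against 2.01% of all promoters and 5.72% of those of higher genes.

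**Figure D4:**
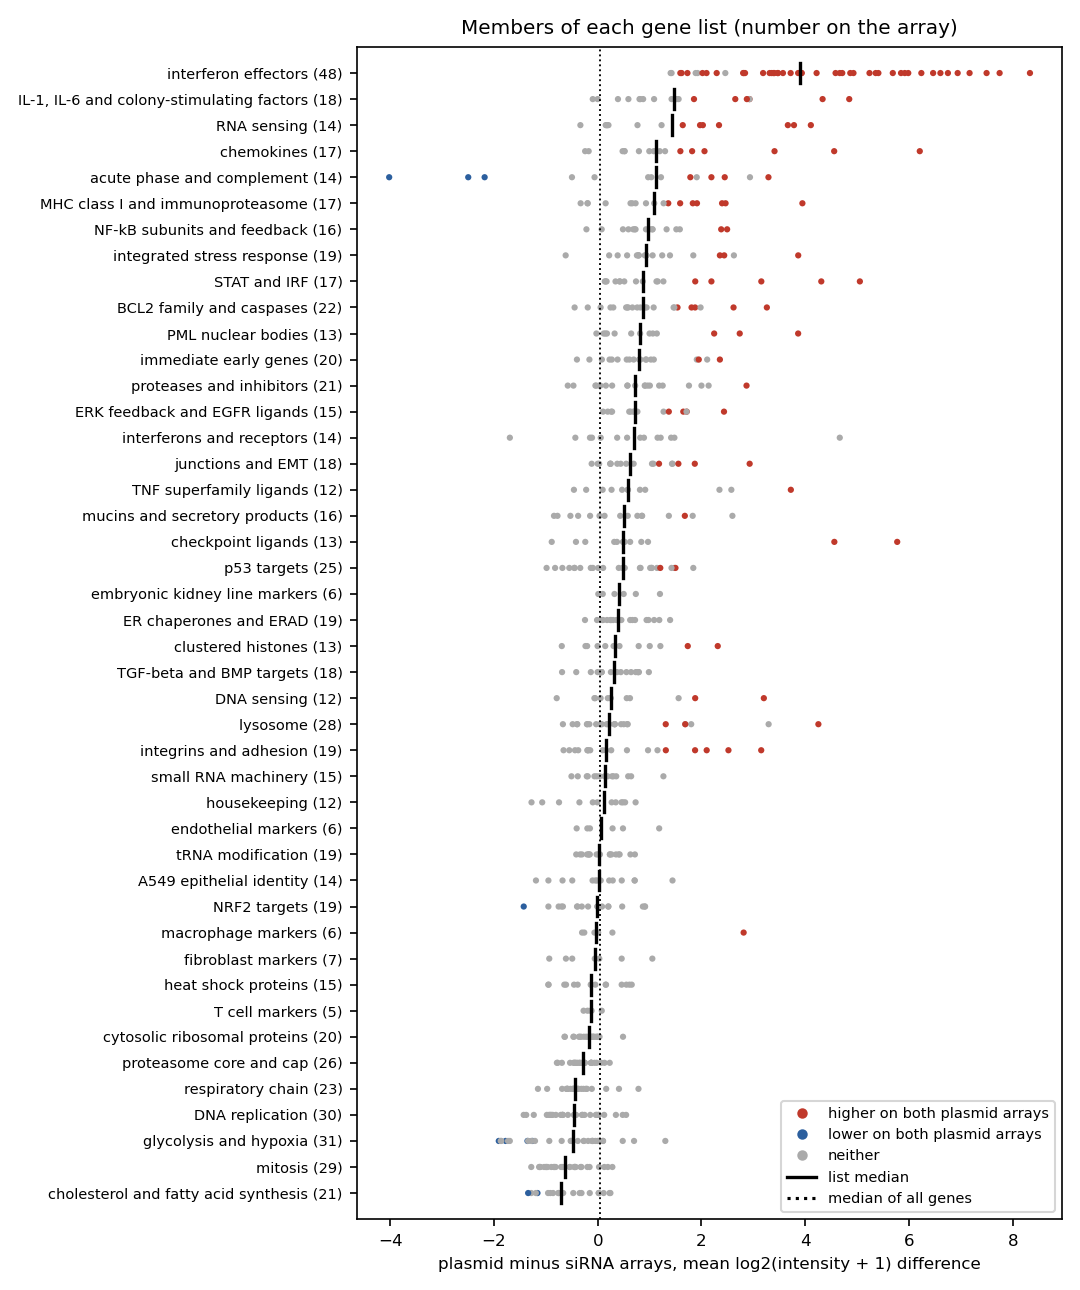
Each point is a gene of the list named on the left, placed at its plasmid minus siRNA difference of log2(intensity + 1), with lists ordered by their median (black bar) and the number of genes on the array in brackets. Red points were called higher and blue points lower, and the interferon effectors lie furthest right while mitosis, glycolysis and cholesterol genes lie left of the dotted median of all genes.

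Acute phase and complement genes split. Of 14, 4 were called higher and 3 lower, against 2.31% and 0.455% of all genes, so that the median of 1.13 describes neither group. Higher were the complement genes CFB (3.29), C1R (2.45) and C1S (1.79) and the serum amyloid gene SAA1 (2.19), which is nearly identical to SAA2 (1.91). Lower were the 3 chains of fibrinogen, the clotting protein of plasma. FGB read 182 and 164 on vector and WDR4 and 3835 and 2072 on siCtrl and siPML, a difference of -4.02 and the only lower gene with all 4 differences at least 8-fold. FGG read 483 and 495 on the plasmid arrays and 4432 and 1723 on the siRNA arrays, a difference of -2.50. FGA read 1469 and 1277 on vector and WDR4 and 5597 and 6892 on siCtrl and siPML, a difference of -2.18, and its dimmer probe differed by -1.74. The plasmid arrays of all 3 chains were close to each other and far below both siRNA arrays.

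Other genes called lower belonged to none of the lists described so far. APOH, a phospholipid-binding plasma protein, read 102 and 117 on vector and WDR4 and 658 and 636 on siCtrl and siPML, a difference of -2.55. PRG4 (lubricin) differed by -2.79, the mucosal scavenger protein DMBT1 by -2.18, and the tetraspanin-like surface proteins TSPAN8 and TM4SF4 by -2.68 and -1.96. For these genes no plasmid array reached the lower siRNA array. CNTN1, a neural adhesion molecule, differed by -2.64, the neuronal serpin SERPINI1 by -2.06, the mitochondrial methyltransferase ATPSCKMT by -2.16 and the apoptosis repressor NOL3 by -1.77. The PRG4 call was lost when a gene's probes were averaged.

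**Figure D5:**
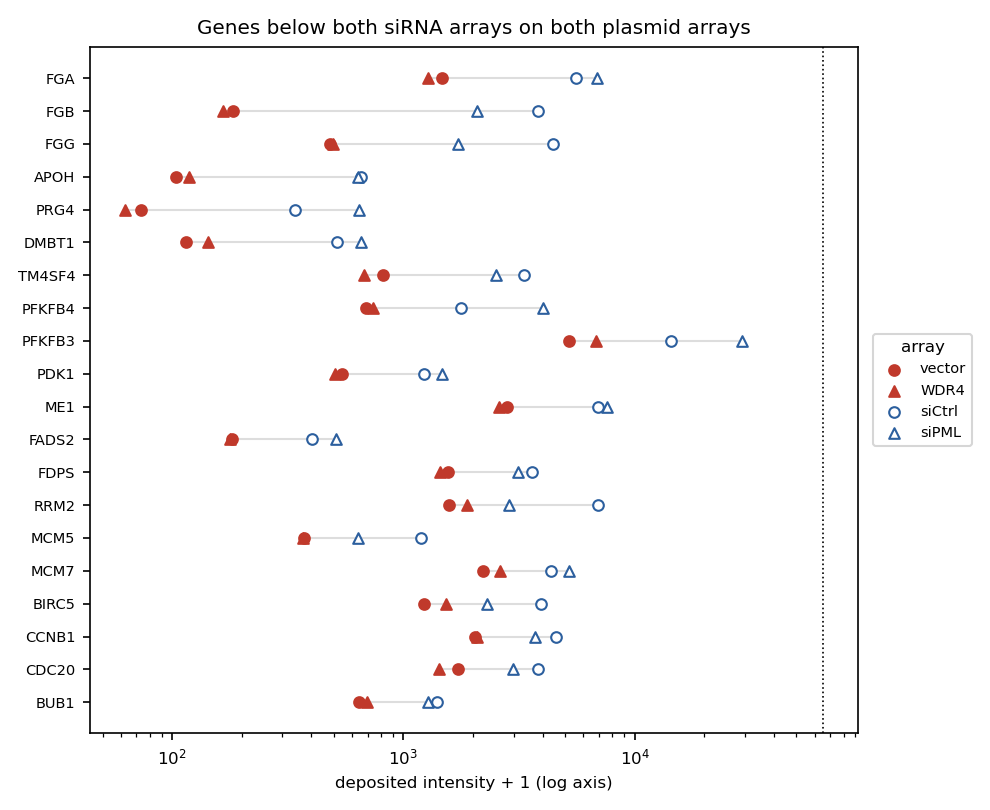
Deposited intensity plus 1 on a log axis for 20 genes whose plasmid arrays (filled red, circle vector, triangle WDR4) lie below both siRNA arrays (open blue, circle siCtrl, triangle siPML), from fibrinogen chains at the top to mitosis genes at the bottom. The gap is widest for FGB and narrows to about 2-fold for the replication and mitosis genes, whose siCtrl and siPML symbols are themselves apart.

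A minority of death and checkpoint genes was called higher. Of 22 BCL2 family and caspase genes, 17 lay above both siRNA arrays and 5 were called higher, against 29.6% and 2.31% of all genes. None was called lower, and the median was 0.87. CASP1, the protease that matures IL-1 beta, read 948 and 1193 on vector and WDR4 and 97.6 and 124 on siCtrl and siPML, a difference of 3.26. BCL2A1, an NF-kB-induced survival factor, differed by 2.62, BIK by 1.88, CASP4 by 1.81 and PMAIP1 (NOXA) by 1.54. Of 13 checkpoint ligands and suppressive enzymes, 2 were called higher and none lower, with a median of 0.50 that was 0.11 without siCtrl and 0.87 without siPML. They were IDO1, which degrades tryptophan, at 2517 and 3465 on the plasmid arrays and 78.1 and 35.9 on the siRNA arrays (5.77), and CD274 (PD-L1), at 661 and 1111 on the plasmid arrays and 31.4 and 39.7 on the siRNA arrays (4.56). The CD274 call was lost with the mean over its probes. Of 25 p53 targets, 2 were called higher, the kinase gene PLK3 and TP53INP1 (1.21), 14 lay above and 6 below both siRNA arrays, against 29.6% and 18.7% of all genes, and the median was 0.48, or 0.24 with centring and 0.27 with quantile scaling. PLK3 read 1463 and 787 on vector and WDR4 and 378 and 380 on siCtrl and siPML. Both calls were lost when arrays were centred, and that of PLK3 also with quantile normalization and with the trend removed. CDKN1A, the p53-induced inhibitor of cyclin-dependent kinases, differed by 1.14.

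Stress responses were described by pathway. Of 19 integrated stress response genes, 18 lay above both siRNA arrays and 3 were called higher, against 29.6% and 2.31% of all genes. None was called lower, and the median was 0.94. DDIT3 (CHOP), a factor induced under lasting stress, read 65554 and 24436 on vector and WDR4, with vector at the scanner's limit, and 3249 and 2320 on siCtrl and siPML, which makes 3.87 the least its difference can be. ATF3 read 3609 and 2145 on the plasmid arrays and 425 and 694 on the siRNA arrays, a difference of 2.36, and NUPR1 differed by 2.44. In these genes vector was above WDR4, and both were above the siRNA arrays. Of 19 chaperones and degradation factors of the endoplasmic reticulum, 10 lay above and none was called, with a median of 0.38 that was 0.19 without vector and 0.78 without WDR4. HSPA5 (BiP) read 1206 and 367 on vector and WDR4 and 343 and 285 on siCtrl and siPML, so the difference of 1.09 came mainly from the vector array. Of 15 heat shock genes none was called and the median was -0.13, or 0.04 once the trend along intensity was removed.

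Immediate early genes (10%) and ERK feedback and EGFR ligand genes (26.7%) were called higher more often than all genes (2.31%). Of 20 immediate early genes, 14 lay above both siRNA arrays, against 29.6% of all genes. ATF3 and KLF6 (1.95) were called higher, and the median of the list was 0.81. EGR1 read 3797 and 883 on vector and WDR4 and 353 and 671 on siCtrl and siPML, and was above both without all 4 differences reaching 2-fold. Of 15 ERK feedback genes and EGFR ligands, 4 were called higher and none lower, with a median of 0.71. They were EREG (2.43), DUSP5 (1.72), HBEGF (1.65) and TGFA (1.37), of which DUSP5 and TGFA lost their call when arrays were centred, and TGFA also with quantile normalization and with the trend removed. Among surface proteins, ICAM1 and VCAM1, ligands of leukocyte integrins, differed by 3.15 and 2.52. ICAM1 read 4125 and 3391 on the plasmid arrays and 490 and 360 on the siRNA arrays. The integrin chains ITGA2 and ITGA3 and the laminin chain LAMB3 were higher by 2.10, 1.31 and 1.88, although the median of the 19 adhesion genes was only 0.16 and turned to -0.08 with centring and -0.08 without WDR4. The ITGA3 call was lost with centring.

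Of 18 junction and epithelial-mesenchymal transition genes, 4 were called higher, against 2.31% of all genes, and none lower, with a median of 0.62. These were the claudins CLDN4 (2.93) and CLDN7 (1.87), which seal epithelia, and ZEB2 (1.56) and ZEB1 (1.18), repressors of E-cadherin. The ZEB1 call was lost with quantile normalization, centring and the trend removed. E-cadherin itself, CDH1, read 7828 and 6882 on vector and WDR4 and 5311 and 1374 on siCtrl and siPML, above both with siPML far the lowest. Of 21 proteases and inhibitors, 14 lay above, against 29.6% of all genes. Only the kallikrein KLK10 (2.87) was called higher (4.76% of the list), and the median was 0.72. KLK10 lost its call with the mean over its probes. Of 18 TGF-beta and BMP targets none was called, with a median of 0.31 that was 0.02 without siCtrl. Of 16 mucin and secretory genes MUC13 (1.68) was called higher, except with quantile normalization, centring and the trend removed, with a median of 0.51 that was 0.03 without siCtrl and 0.86 without siPML.

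PML nuclear body genes included other interferon-responsive members. Of 13, SP110 (3.86) and SP140L (2.24), relatives of SP100, were called higher together with PML (23.1%, against 2.31% of all genes). Both plasmid arrays lay above both siRNA arrays for 8 of the 13, against 29.6% of all genes, and the median was 0.82. The partner DAXX differed by 0.15 and SP100 by 1.14. Of 28 lysosomal genes 3 were called higher, LAMP3 (4.25), the interferon-induced APOL1 (1.69) and the cholesterol exporter NPC1 (1.31), with a median of 0.22 that was -0.02 with centring. The calls of APOL1 and NPC1 were lost with quantile normalization, centring and the trend removed. LAMP3 read 2025 and 2577 on vector and WDR4 and 96.4 and 146 on siCtrl and siPML. Of 13 clustered histone genes H2BC21 (2.31) and H2AC6 (1.74) were called higher, both of which can share probe signal with near-identical copies, and the median of 0.33 was 0.12 without siCtrl and 0.82 without siPML.

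Among lists of growth and metabolism, only those of glycolysis, cholesterol and NRF2 genes held called members. Of 29 mitosis genes none was called and 19 lay below both siRNA arrays, against 18.7% of all genes, with a median difference of -0.64. CDC20, an activator of the anaphase-promoting complex, read 1716 and 1428 on vector and WDR4 and 3806 and 2984 on siCtrl and siPML, a difference of -1.11. CCNB2, a mitotic cyclin, read 1355 and 1633 on the plasmid arrays and 3071 and 2751 on the siRNA arrays, a difference of -0.97. Both genes lay below both siRNA arrays by less than the call asks of every pair. The median of the list was -0.89 for vector minus siCtrl and -0.34 for WDR4 minus siPML, and -0.38 without siCtrl. Of 30 DNA replication genes 17 lay below and none was called, with a median of -0.45 that was -0.81 without siPML. RRM2, a subunit of ribonucleotide reductase, read 1576 and 1874 on the plasmid arrays and 6971 and 2867 on the siRNA arrays. Within the siRNA side, the medians of siPML minus siCtrl were -0.55 for mitosis and -0.70 for replication genes.

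The element that mitosis genes share, the cell cycle genes homology region (CHR, TTTGAA, searched on both strands), was in 15 of 24 of their promoters (62.5%), against 11.9% of all promoters and 12.5% of those of lower genes. The stretches of CDC20 and CCNB2 nearest the start show it in capitals, from RefSeq on GRCh38.p14 and on the strand of the gene.
CDC20 (chr1:43358891-43358946, plus strand): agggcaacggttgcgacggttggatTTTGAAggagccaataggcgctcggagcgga
CCNB2 (chr15:59105092-59105147, plus strand): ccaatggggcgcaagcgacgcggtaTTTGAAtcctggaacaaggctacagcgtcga

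Of 31 glycolysis and hypoxia genes, 4 were called lower (12.9%, against 0.455% of all genes) and none higher. Both plasmid arrays lay below both siRNA arrays for 19 of the 31, against 18.7% of all genes, with a median of -0.48. PFKFB4 and PFKFB3, which set the level of the glycolytic activator fructose 2,6-bisphosphate, differed by -1.91 and -1.78. PFKFB3 read 5204 and 6820 on vector and WDR4 and 14371 and 28978 on siCtrl and siPML, and its call was lost with quantile normalization and with the trend removed, at differences of -1.72 and -1.62. PDK1, which keeps pyruvate out of mitochondria, differed by -1.35 and TPI1 by -1.26. The highest array for PFKFB3 was siPML, and the list's median was -0.31 for vector minus siCtrl, -0.69 for WDR4 minus siPML, -0.16 without vector, -0.86 without siCtrl and -0.26 without siPML. The hypoxia response element core ACGTG was in 14 of 27 promoters of the list, against 23.9% of all promoters. Lists that were not lower held it at higher shares, at 10 of 15 promoters of tRNA modification genes and 9 of 14 of proteases and inhibitors.

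Of 21 cholesterol and fatty acid synthesis genes, 2 were called lower (9.52%, against 0.455% of all genes). They were the desaturase FADS2 (-1.34) and the isoprenoid synthase FDPS (-1.16). Both plasmid arrays lay below both siRNA arrays for 12 of the 21, against 18.7% of all genes. The median of -0.70 was -0.46 without WDR4 and -0.27 without siPML, and within the siRNA side siPML exceeded siCtrl by a median of 0.58. FDPS lost its call with the mean over its probes, at -0.94, and with 16 added before log2, at a nearly equal -1.15. Of 23 respiratory chain genes 17 lay below and none was called, with a median of -0.43 that was -0.28 without siCtrl. Of 20 cytosolic ribosomal protein genes 12 lay below, against 18.7% of all genes, and none was called. Their median of -0.16 was -0.40 with centring, -0.30 without siCtrl and -0.015 without siPML. Of 19 NRF2 targets the malic enzyme ME1 (-1.43) was called lower. Both plasmid arrays lay above both siRNA arrays for 5 and below for 9, against 29.6% and 18.7% of all genes. The median of the list was -0.01, or 0.04 without genes at the scanner's limit, -0.24 with centring and -0.25 without WDR4. Of 19 tRNA modification genes none was called, and the median of 0.03 turned to -0.16 with quantile scaling. Of 15 small RNA machinery genes none was called, and the median of 0.13 turned to -0.09 with quantile scaling and -0.11 with centring. Of 12 housekeeping genes none was called, and the median of 0.13 turned to -0.11 with centring.

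Higher genes lay beside each other in the genome. Ordered along the chromosomes by the RefSeq gene table, 78 of 415 placed higher genes (18.8%) were next to another higher gene, against 4.29% of genes not called higher. Runs of 3 were OAS1, OAS3 and OAS2 on chromosome 12, C1S, C1R and C1RL on chromosome 12, PSMB8, TAP1 and PSMB9 on chromosome 6, and RNF31, IRF9 and REC8 on chromosome 14. Neighbours in these runs are partly gene copies or share promoter regions, so they are not independent of each other.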

How the data were processed

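RNA of transfected A549 cells was amplified and labelled with Cy5, per the labels' protocols, and hybridised to 4 one-colour arrays, 1 for each construct. The deposited table holds 1 intensity per probe and array. The sources used here do not give the scanner, background correction or normalization. The values are linear, 23 to 42 per array lie below 0, and some reach the scanner's limit. Per-array upper quartiles were alike within each side, so a scaling within pairs by the authors is possible.

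Probes were named through the platform annotation. Of 31741, 24658 had 1 symbol (22404 current, 2177 updated, 77 unmatched), 1002 had several and 6081 had none. Negative values became 0, and log2 was taken after 1 was added, with no scaling. Each gene took its brightest probe by the mean over all 4 arrays, without a filter on level. The 44 lists hold 834 entries, of which 782 were on the array; the comparison, members and lists were chosen with earlier results of these data known. Named genes were PML and WDR4, 12 genes in each direction with the largest of the differences nearest 0 among those called, and up to 6 genes per list with the largest difference among those at or above the median level on a side. Other genes, among them those of printed promoters, were chosen after their values were seen. Promoters came from RefSeq, the first listed for each symbol.

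With 1 array per construct the reported differences and calls rest on no test, and the number of arrays limits the precision. limma 3.58.1 in R 4.3.3, with the arrays of a side taken as replicates, was an alternative only. Other alternatives changed scaling, filters, probe rule, fold threshold, pseudocount, trend along intensity (running median over 501 genes) and the arrays used. The steps were tested on simulated arrays, whose noise was equal on all arrays and smaller than the spread within the sides here. That test checked the code and does not show how reliable the calls are. Python 3.11.15, numpy 2.4.6, pandas 2.3.3 and matplotlib 3.10.9 were used.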

Additional observations from a re-analysis of the deposited data

Results flagged for a closer look

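Probes outside the gene comparison also passed the call rule, at shares close to or below those of named genes. Of 1002 probes that name several genes, 28 were higher on both plasmid arrays by the same rule (2.79%) and none was lower. Of 6081 probes with no symbol, 59 were higher and 16 were lower on both plasmid arrays. These probes were not assigned to genes here. Of the probes with no symbol 0.97% were higher and 0.263% lower, below the 2.31% and 0.455% of named genes.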

How the results depend on the processing

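No paired analysis was possible because the groups share only replicate number 1, with 1 array each. Main counts were 422 genes higher, 83 lower and 8802 with sides that do not overlap. Centring gave 274 and 194, and quantile scaling gave 131 lower. No minimum intensity gave 661 higher, a threshold of 1.5-fold gave 979 and 358, one of 4-fold gave 126 and 4, and keeping genes whose mean reached the median gave 5368 without overlap. The limma fit, with arrays of a side as replicates, gave 678 higher and 163 lower at an adjusted p of at most 0.05 and 2-fold, of which 405 and 81 were also called by the main rule. Leaving out an array, by construction a looser rule, gave 545 to 927 higher, 133 to 242 lower and 12984 to 13958 without overlap. Of 44 list medians, 32 kept their sign over 13 alternatives. Lysosome genes turned to -0.0194 with centring. Small RNA genes turned to -0.0858 (quantile), -0.108 (centring), -0.01225 (filter on the mean) and -0.0487 (trend removed). Adhesion genes turned to -0.080 (centring) and -0.145 (filter), and leaving out an array gave -0.078 (without WDR4) to 0.395. Housekeeping genes turned to -0.108 (centring), -0.00794 (filter), -0.103 (vector minus siCtrl) and -7.89e-05 (WDR4 minus siPML), and leaving out an array gave -0.00521 (without siCtrl) to 0.159. The cause of these changes was not tested. Of 104 named genes called, 18 lost the call under at least 1 alternative. Of 1126 values 33 lost it, 12 of them under centring, and none changed direction. Leaving out an array cannot remove a call, and the filters on the mean and on the scanner's limit only drop genes. Many of the 1126 values could therefore not lose the call, and 33 of 1126 makes the calls look steadier than they are. Changes of the fold threshold were not counted here.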

Other observations

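Several genes outside the lists, picked after their values were seen, also stood apart. Genes linked to the aryl hydrocarbon receptor went both ways, with CYP1A1, CYP1B1 and the receptor gene AHR called higher and ALDH3A1, also known as a target, called lower. CYP1A1 read 454 and 653 on vector and WDR4 and 30.0 and 20.2 on siCtrl and siPML, a difference of 4.41, and CYP1B1 and AHR differed by 1.87 and 1.97. VDR, the vitamin D receptor, read 2276 and 1800 on the plasmid arrays and 374 and 209 on the siRNA arrays (2.85). The class II invariant chain CD74 differed by 2.64, DHRS2 by 5.08, the NAD glycohydrolase CD38 by 2.60 and the costimulatory receptor TNFRSF9 by 3.13. Lower were the aldehyde dehydrogenase ALDH3A1, at 14392 and 9523 on vector and WDR4 and 58534 and 40626 on siCtrl and siPML (-2.06), the transporter ABCG2 (-1.59), the glutathione peroxidase GPX2 (-1.17), and CPS1, PROS1 and C5, which the liver is known to make (-1.46, -1.48 and -1.60).

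By symbol, 6 of 59 TRIM genes and 5 of 13 PARP genes were called higher and none lower, against 2.31% of all genes. Of 482 genes with a ZNF symbol 13 were called higher (2.70%) and none lower, close to that share, although 244 lay above both siRNA arrays (50.6%, against 29.6% of all genes) and 43 below. Their median difference was 0.31, against 0.05 for all genes.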
